A study of Homo sapiens with 15 samples.

Results

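The 47 genes described here encode proteins that carry a cell from G2 through mitosis to cytokinesis. They were chosen by symbol, from a list of genes known for that role, with earlier results of these data known. All 47 were present once each in both deposited tables, among 19604 protein-coding genes per table. Each had a mean of at least 1 FPKM (a read density per kilobase of transcript and sequencing depth, and so corrected for gene length) in both tables, so all 47 were tested. The study sequenced total RNA of OCI-AML5 cells, a long-established line from human acute myeloid leukaemia that the series title places among RUNX1-mutant AML cells, in 15 libraries of 5 groups with 3 libraries each. All cells were kept in Alpha MEM with 20% serum and GM-CSF at 10 ng/mL. In the drug experiment, 3 libraries came from untreated cells, 3 from cells given 1000 nM OTX015 for 4 h and 3 from cells given 1000 nM ARV-825 for 4 h. In the shRNA experiment, 3 libraries came from cells 72 h after transduction with a non-targeting shRNA and 3 from cells 72 h after transduction with an shRNA against RUNX1. In the last group the treatment label says RUNX1 and the titles say Runx3; its name here is that of the label. All samples are of 1 cell line, and the labels give no shRNA sequence. Each p-value rests on the spread of libraries within groups, pooled over all groups of an experiment and drawn towards that of other genes. That spread may be technical in part.

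Genes of this group are transcribed mostly late in the cell cycle. In quiescent and early cycling cells the DREAM complex holds them down through the MuvB core, and in G2 the same core works with B-MYB and FOXM1 to switch them on. Their products act in turn. CDK1 with its cyclins starts mitosis, the kinetochore and spindle proteins attach and align chromosomes, the spindle checkpoint delays anaphase, the anaphase-promoting complex ends it, and the central spindle directs cytokinesis. OTX015 is a small molecule that displaces BET bromodomain proteins from acetylated chromatin. ARV-825 joins a BET ligand of the same kind to a ligand of the ubiquitin ligase subunit cereblon, so that BET proteins are degraded as well. RUNX1 is a transcription factor of blood stem and progenitor cells.

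The promoters of these genes are known for a pair of short elements, and those of 3 genes that fell and 3 that rose with the drugs are shown so that they can be set side by side. Promoters were taken from RefSeq on GRCh38.p14, 250 bases before to 50 bases after the annotated start, and 39 of the 47 genes had an entry, all but AURKA, BIRC5, BUB3, FOXM1, RACGAP1, TPX2, TTK and UBE2C. The cell cycle genes homology region, CHR, was searched as TTTGAA or TTCGAA on both strands, and the CCAAT box, the site of NF-Y, as CCAAT on both strands. The CHR letters stood in 28 of 39 promoters (71.8%), against 16.6% of all 27305 RefSeq promoters of the same length. Within 50 bases of the start they stood in 24 of 39 (61.5%), against 5.05% of all promoters. CCAAT stood in 30 of 39 (76.9%), against 35.7%, and both elements in 24 of 39 (61.5%), against 6.58%. The RUNX core letters TGTGGT were found in 3 (7.69%, in ANLN, CDCA8 and PTTG1), against 13.1%, and the E-box letters CACGTG, the kind of site bound by MYC, in 5 (12.8%, in ANLN, CCNB1, CENPE, CENPF and PLK1), against 7.43%. A match is a description of letters and not a measured site.

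The stretches shown run 5′ to 3′ from 130 bases before to 30 bases after the start, on the strand of the gene, with CHR and CCAAT letters of either strand in capitals. They are chr16:23678759-23678918 on the + strand for PLK1, chr15:40160939-40161098 on the + strand for BUB1B, chr15:90994506-90994665 on the - strand for PRC1, chr1:37692386-37692545 on the + strand for CDCA8, chr22:46296740-46296899 on the + strand for GTSE1 and chr5:138178982-138179141 on the + strand for KIF20A, all on GRCh38.p14.
PLK1: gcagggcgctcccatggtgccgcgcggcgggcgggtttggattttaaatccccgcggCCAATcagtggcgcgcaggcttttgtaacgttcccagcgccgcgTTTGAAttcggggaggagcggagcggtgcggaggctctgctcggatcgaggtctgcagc
BUB1B: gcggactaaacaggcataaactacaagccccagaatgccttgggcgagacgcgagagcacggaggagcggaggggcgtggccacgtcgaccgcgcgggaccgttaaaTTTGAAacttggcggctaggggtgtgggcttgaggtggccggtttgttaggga
PRC1: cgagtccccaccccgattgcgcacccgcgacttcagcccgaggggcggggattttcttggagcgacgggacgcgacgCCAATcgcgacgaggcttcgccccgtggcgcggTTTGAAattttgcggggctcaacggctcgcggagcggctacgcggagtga
CDCA8: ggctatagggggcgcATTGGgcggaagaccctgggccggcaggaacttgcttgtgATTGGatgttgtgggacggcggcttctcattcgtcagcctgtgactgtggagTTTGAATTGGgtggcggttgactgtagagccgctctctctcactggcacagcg
GTSE1: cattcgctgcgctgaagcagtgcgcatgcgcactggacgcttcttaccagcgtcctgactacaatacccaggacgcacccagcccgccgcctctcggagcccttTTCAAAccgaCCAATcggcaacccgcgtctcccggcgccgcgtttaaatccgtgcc
KIF20A: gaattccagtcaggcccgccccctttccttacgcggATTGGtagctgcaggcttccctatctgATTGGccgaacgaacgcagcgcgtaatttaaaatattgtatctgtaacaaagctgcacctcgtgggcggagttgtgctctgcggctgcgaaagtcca

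PLK1, BUB1B and PRC1 fell with both drugs, while CDCA8, GTSE1 and KIF20A rose with both. PLK1 and PRC1 hold CHR letters 29 and 20 bases before the start, with CCAAT 73 and 53 bases before it. BUB1B holds CHR letters 23 bases before the start and no CCAAT in the 300 bases searched. CDCA8 has CHR letters 23 bases before the start, running into 1 of its 3 CCAAT boxes, all 3 on the opposite strand. GTSE1 has CHR letters on the opposite strand 26 bases before the start and CCAAT 16 bases before it. KIF20A has 2 CCAAT boxes and no CHR letters in the window. CHR letters stood in 12 of 13 promoters of genes that fell with ARV-825, 12 of 19 that rose and 4 of 7 that did not pass. The difference between these shares was not tested.

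The summed FPKM of a library ran from 554570 to 656995, with 10496 to 10927 genes at 1 FPKM or more. Read depth is unknown. MYC, a well-known target of BET proteins, fell from 288 ± 6.99 FPKM in the controls (SD, n = 3) to 113 ± 1.87 under OTX015, and to 23.03 ± 1.47 under ARV-825. RUNX1 fell from 70.6 ± 1.40 to 38.7 ± 3.65 FPKM under its shRNA, a log2 change of -0.85 ± 0.0589 (adjusted p = 3.71e-05). Log2 changes are differences of mean log2(FPKM + 1) with their standard error after ±, and each p is adjusted over all genes tested by the method of Benjamini and Hochberg. Of 12 myeloid leukaemia markers 10 were at 1 FPKM or more in each table, and ANPEP and KIT were not. Of 8 epithelial and fibroblast markers none was, of 8 erythroid markers 1 was and of 6 B cell markers 1 was. Summed T and NK markers were 46.9 to 48.97 FPKM in the controls, 47.6 to 48.05 under OTX015 and 67.2 to 71.5 under ARV-825, mostly NKG7 and NCAM1. All 3 of the list that were tested, NKG7, NCAM1 and CD8A, were higher with ARV-825 than in the controls, and the T cell receptor complex genes CD3D, CD3E and CD3G were under 1 FPKM in every drug library. Summed myeloid markers were 990.4 to 1062, 633 to 645 and 713 to 747 FPKM in the same order. In the shRNA experiment the summed T and NK markers were 19.4 to 21.1 FPKM in the non-targeting libraries and 14.9 to 15.3 in those with RUNX1 shRNA, and the summed myeloid markers 965 to 992 and 833 to 858 FPKM (4 higher and 5 lower of 10 tested). The part of these shifts in the results was not tested. ARV-825 replicate 1 lists 6 of 13 mitochondrially encoded genes at 0, and counts of changes from the controls without it are given below.

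In untreated cells the 47 genes were well expressed. TOP2A, the topoisomerase that untangles sister chromatids, was highest at 98.02 ± 3.26 FPKM (SD, n = 3), followed by the checkpoint protein gene BUB3 at 87.2 ± 1.04 and the microtubule-bundling NUSAP1 at 75.8 ± 0.942. The spread of BUB3 did not overlap that of NUSAP1, whose neighbours CDC20 (64.7 ± 4.52), PTTG1 (63.8 ± 3.23) and CCNB1 (63.02 ± 0.879) differed from each other by less than their spread. The lowest were CENPE at 9.33 ± 0.374 and KIF4A at 9.39 ± 0.655, which did not differ beyond their spread, and CDC25C at 4.74 ± 0.259. The sum over the 47 was 1556 to 1660.0 FPKM in the controls, 1604 to 1659 under OTX015 and 1579 to 1613 under ARV-825, so the ranges of the 3 groups overlapped. In the separately normalized shRNA table it was 2012 to 2023 FPKM in the non-targeting libraries and 2056 to 2068 in those with RUNX1 shRNA. Levels of the 2 tables were normalized apart and are not compared by a test. In bulk RNA, fewer cells in G2 and mitosis and less RNA of a gene per cell cannot be told apart.

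**Figure D1:**
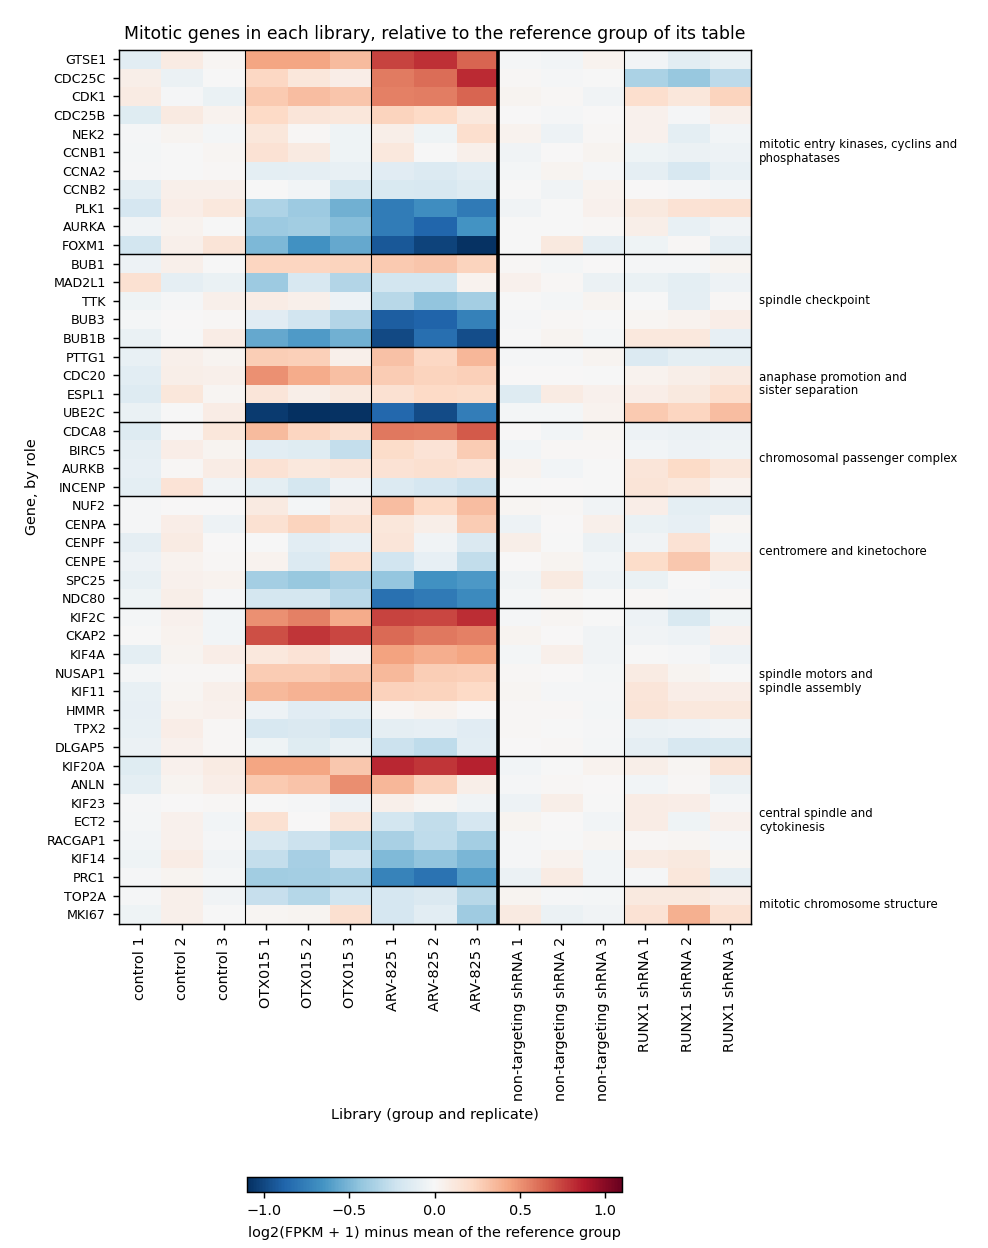
Each row is 1 of the 47 genes, ordered by role, and each column 1 library; colour gives log2(FPKM + 1) minus the mean of the control group (left of the thick line) or of the non-targeting group (right of it). Red and blue rows stand within the same role, such as KIF20A and PRC1 in cytokinesis, in the OTX015 and ARV-825 columns, and the RUNX1 shRNA columns are paler.

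With ARV-825, 20 of the 47 genes rose and 19 fell, and 8 did not pass the test (limma, adjusted p under 0.05). Over all 10819 genes tested 35.8% rose and 38.4% fell, so neither count of the mitotic genes stood far from the share of all genes. Their median log2 change was 0.01, against -0.01 for all genes tested. Their median absolute change was 0.279, against 0.386 for all genes tested, and 1 of 47 (2.13%) changed at least 2-fold, against 12.7%. With OTX015, 15 rose, 16 fell and 16 did not pass. Over all genes 36.1% rose and 33.5% fell with OTX015. The median log2 change was 0.03 for the 47 genes and for all genes, the median absolute change 0.219 against 0.329, and 1 of 47 changed at least 2-fold, against 8.08% of all genes. Both drugs are compared with the same 3 control libraries, so the values of each are given side by side. With ARV-825, every role but chromosome structure held genes that rose and genes that fell: FOXM1 fell and CDK1 rose, BUB1B fell and BUB1 rose, UBE2C fell and CDC20 rose. Without ARV-825 replicate 1 the ARV-825 counts were 17 and 18, against 33.9% and 37.1% of all genes in the same fit.

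**Figure D2:**
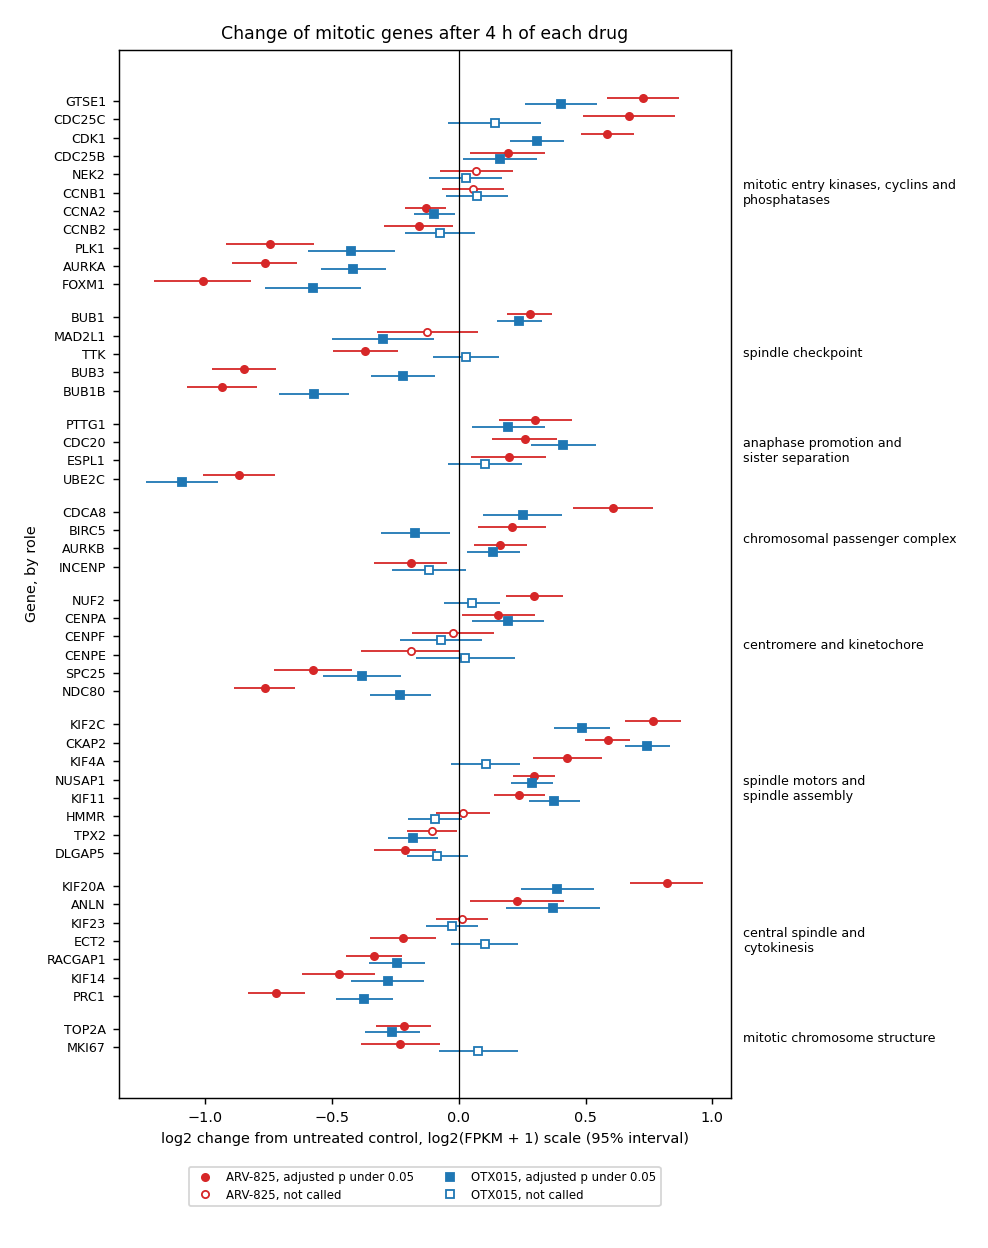
Points give the log2 change of each gene from untreated cells after ARV-825 (circles) and OTX015 (squares), with 95% intervals, filled where the adjusted p is under 0.05. FOXM1 at -1.01 lies at the low end and KIF20A at 0.82 at the high end for ARV-825, and UBE2C at -1.09 and CKAP2 at 0.74 mark the ends for OTX015.

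Among the 11 mitotic entry genes, 4 rose and 5 fell with ARV-825, and 3 rose and 4 fell with OTX015. All-gene shares were 35.8% up and 38.4% down with ARV-825, and 36.1% and 33.5% with OTX015. Counts by role, here and below, were not tested against these shares. FOXM1, the forkhead factor that activates G2 genes, was at 22.8, 27.5 and 29.2 FPKM in the control libraries, 18.4, 16.2 and 17.5 with OTX015 and 13.4, 12.5 and 11.9 with ARV-825. Each OTX015 library lay below each control library, and each ARV-825 library below each OTX015 library. FOXM1 fell by 2.1-fold with ARV-825, a log2 change of -1.01 ± 0.086 (adjusted p = 1.34e-06), and by 1.52-fold with OTX015, -0.57 ± 0.086 (adjusted p = 0.000138). PLK1, the polo kinase that drives mitotic entry and spindle assembly, was at 44.3, 53.1 and 54.9 FPKM in the control libraries, 39.6, 38.2 and 34.7 with OTX015 and 29.2, 31.1 and 29.1 with ARV-825. The 3 groups of PLK1 did not overlap, with log2 changes of -0.74 ± 0.078 (adjusted p = 6.81e-06) for ARV-825 and -0.42 ± 0.078 (adjusted p = 0.000601) for OTX015. AURKA, the centrosomal Aurora kinase that activates PLK1, was at 32.9, 34.9 and 33.9 FPKM in the control libraries, 25.4, 25.8 and 24.2 with OTX015 and 19.5, 18.03 and 21.1 with ARV-825. Its groups stood in the same order without overlap, with changes of -0.77 ± 0.0582 (adjusted p = 5.61e-07) and -0.42 ± 0.0582 (adjusted p = 8.19e-05). CCNA2, the A-type cyclin of S and G2 phase, fell with both drugs (-0.13 and -0.10), and CCNB2, a B-type cyclin, fell with ARV-825 (-0.16) and was at -0.08 with OTX015, which did not pass.

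The kinase at the centre of this group went the other way. CDK1 was at 56.9, 53.1 and 50.7 FPKM in the control libraries, 65.5, 67.9 and 66.1 with OTX015 and 79.2, 79.3 and 83.8 with ARV-825. Each drug library exceeded each control library, and the ARV-825 libraries were the highest, with log2 changes of 0.59 ± 0.0477 (adjusted p = 9.59e-07) for ARV-825 and 0.31 ± 0.0477 (adjusted p = 0.000171) for OTX015. CCNB1, the cyclin partner of CDK1 at mitotic entry, was at 62.2, 62.9 and 63.97 FPKM in the control libraries, 70.5, 67.7 and 60.9 with OTX015 and 68.3, 62.7 and 65.7 with ARV-825. Its groups overlapped and its intervals, -0.066 to 0.177 for ARV-825 and -0.051 to 0.192 for OTX015, include 0. CDC25C, the phosphatase that removes inhibitory phosphates from CDK1, was at 5.01, 4.49 and 4.72 FPKM in the control libraries, 5.71, 5.27 and 5.03 with OTX015 and 7.54, 7.79 and 9.15 with ARV-825. All 3 ARV-825 libraries stood clear of the other 6, the log2 change was 0.67 ± 0.0825 (adjusted p = 2.4e-05), and OTX015 was at 0.14 ± 0.0825 (adjusted p = 0.147). The related CDC25B rose with ARV-825 (0.19) and OTX015 (0.16), and GTSE1, a microtubule-associated protein made in G2, rose by 0.73 and 0.40. NEK2, the kinase that splits centrosomes, was at 0.07 and 0.03 and passed in neither comparison.

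Of the 5 spindle checkpoint genes, 3 fell and 1 rose with each drug. All-gene shares were 38.4% down and 35.8% up with ARV-825, and 33.5% and 36.1% with OTX015. BUB1B, the checkpoint protein BubR1 that inhibits the anaphase-promoting complex, was at 24.1, 25.3 and 27.1 FPKM in the control libraries, 16.9, 16.2 and 17.4 with OTX015 and 12.3, 13.9 and 12.4 with ARV-825. The 3 groups did not overlap, and the log2 changes were -0.93 ± 0.0624 (adjusted p = 2.11e-07) for ARV-825 and -0.57 ± 0.0624 (adjusted p = 1.27e-05) for OTX015. BUB3, which brings BUB1 and BubR1 to kinetochores, was at 86.05, 87.5 and 88.1 FPKM in the control libraries, 79.9, 75.3 and 69.5 with OTX015 and 45.9, 46.9 and 51.6 with ARV-825. The ARV-825 libraries lay far below the rest and the OTX015 libraries just below the controls, with changes of -0.85 ± 0.0575 (adjusted p = 2.41e-07) and -0.22 ± 0.0575 (adjusted p = 0.0057). TTK, the checkpoint kinase MPS1, was at 17.8, 18.4 and 19.3 FPKM in the control libraries, 19.7, 19.3 and 17.8 with OTX015 and 14.8, 13.4 and 14.1 with ARV-825. Its OTX015 and control values overlapped (0.03 ± 0.0582, adjusted p = 0.683), while all ARV-825 values were lower than both (-0.37 ± 0.0582, adjusted p = 0.000164). MAD2L1, the MAD2 protein that sequesters CDC20, fell with OTX015 (-0.30) and was at -0.12 with ARV-825, which did not pass. BUB1, the kinase that recruits the others, rose by 0.28 with ARV-825 and 0.24 with OTX015.

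The 4 genes of anaphase promotion and sister separation included the largest fall under OTX015. UBE2C, the ubiquitin-conjugating enzyme of the anaphase-promoting complex, was at 38.1, 40.2 and 42.6 FPKM in the control libraries, 18.9, 17.7 and 18.5 with OTX015 and 21.7, 19.9 and 23.4 with ARV-825. Every drug library was below every control library, and here OTX015 was the lower of the drugs, by 2.19-fold (log2 -1.09 ± 0.0635, adjusted p = 1.11e-07) against 1.86-fold for ARV-825 (-0.87 ± 0.0635, adjusted p = 4.21e-07). CDC20, the activator of the same complex, was at 59.5, 67.5 and 67.04 FPKM in the control libraries, 91.7, 85.98 and 81.2 with OTX015 and 78.6, 76.5 and 77.4 with ARV-825. Its control values were the lowest and its OTX015 values the highest, with changes of 0.41 ± 0.0576 (adjusted p = 8.33e-05) for OTX015 and 0.26 ± 0.0576 (adjusted p = 0.00186) for ARV-825. PTTG1, the securin that restrains separase, rose with both (0.30 with ARV-825 and 0.20 with OTX015), and ESPL1, the separase that cuts cohesin, rose with ARV-825 (0.20) and was at 0.10 with OTX015, which did not pass.

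In the chromosomal passenger complex, which corrects faulty attachments, 3 of 4 genes rose with ARV-825, against 35.8% of all genes tested. BIRC5, its survivin subunit, was at 21.3, 24.04 and 23.3 FPKM in the control libraries, 20.98, 20.7 and 18.9 with OTX015 and 26.5, 25.4 and 27.9 with ARV-825. OTX015 values lay below and ARV-825 values above every control value, with log2 changes of -0.17 ± 0.0612 (adjusted p = 0.0277) and 0.21 ± 0.0612 (adjusted p = 0.00939). BIRC5 was the 1 gene of the 47 to pass in opposite directions, and the share of all genes that did so was not counted. AURKB, the kinase of the complex, was at 33.7, 36.3 and 38.2 FPKM in the control libraries, 40.3, 39.2 and 39.7 with OTX015 and 40.5, 40.99 and 40.1 with ARV-825. The values of both drugs lay above the controls and overlapped each other, with changes of 0.16 ± 0.0475 (adjusted p = 0.00908) for ARV-825 and 0.14 ± 0.0475 (adjusted p = 0.0246) for OTX015. CDCA8, the borealin subunit, rose by 0.61 and 0.25. INCENP, the scaffold of the complex, fell with ARV-825 (-0.19) and was at -0.12 with OTX015, which did not pass.

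The 6 centromere and kinetochore genes split evenly, with 2 up, 2 down and 2 not passing under ARV-825. All-gene shares were 35.8% up and 38.4% down. NDC80, the microtubule-binding subunit of the outer kinetochore complex of the same name, was at 23.3, 25.2 and 23.8 FPKM in the control libraries, 20.9, 20.9 and 19.4 with OTX015 and 13.2, 13.6 and 14.5 with ARV-825. The groups did not overlap, with the ARV-825 libraries far the lowest, and the changes were -0.76 ± 0.0543 (adjusted p = 3.33e-07) and -0.23 ± 0.0543 (adjusted p = 0.00299) for ARV-825 and OTX015. SPC25, another subunit of that complex, fell by 0.57 and 0.38 on the log2 scale. NUF2, the direct partner of NDC80, rose with ARV-825 (0.30) and was at 0.05 with OTX015, which did not pass. CENPA, the histone variant that marks centromeres, was at 14.5, 15.5 and 14.04 FPKM in the control libraries, 16.5, 17.5 and 16.6 with OTX015 and 16.03, 15.4 and 17.99 with ARV-825. The ARV-825 values overlapped the controls although the gene passed (0.16 ± 0.0647, adjusted p = 0.0485), and the OTX015 values did not overlap them (0.19 ± 0.0647, adjusted p = 0.0203). CENPE, the kinetochore motor that moves chromosomes to the plate, was at 8.91, 9.64 and 9.44 FPKM in the control libraries, 9.61, 8.31 and 10.8 with OTX015 and 7.93, 8.73 and 7.56 with ARV-825. CENPE passed in neither comparison (-0.19 ± 0.0879, adjusted p = 0.0726, and 0.03 ± 0.0879, adjusted p = 0.801), nor did CENPF, a large kinetochore protein of G2 and mitosis, at -0.02 and -0.07.

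Of the 8 spindle motors and assembly factors, 5 rose and 1 fell with ARV-825, and 4 rose and 1 fell with OTX015. All-gene shares were 35.8% up and 38.4% down with ARV-825, and 36.1% and 33.5% with OTX015. KIF2C, the kinesin MCAK that takes microtubules apart, was at 23.4, 24.7 and 23.3 FPKM in the control libraries, 34.1, 35.4 and 31.9 with OTX015 and 40.5, 40.4 and 42.6 with ARV-825. The values climbed from control to OTX015 to ARV-825 without overlap, with changes of 0.77 ± 0.0494 (adjusted p = 1.61e-07) and 0.49 ± 0.0494 (adjusted p = 7.31e-06) for ARV-825 and OTX015. CKAP2, a spindle microtubule protein, was at 40.7, 41.8 and 39.8 FPKM in the control libraries, 67.1, 71.04 and 68.6 with OTX015 and 63.5, 61.4 and 60.4 with ARV-825. The 3 groups did not overlap and OTX015 was the highest, with changes of 0.74 ± 0.0401 (adjusted p = 6.59e-08) for OTX015 and 0.59 ± 0.0401 (adjusted p = 2.48e-07) for ARV-825. KIF11, the motor Eg5 that pushes spindle poles apart, rose by 0.24 with ARV-825 and 0.38 with OTX015, and NUSAP1 rose by 0.30 and 0.29. KIF4A, a motor on chromosome arms, rose with ARV-825 (0.43) and was at 0.11 with OTX015, which did not pass. TPX2, the spindle factor that activates Aurora A, fell with OTX015 (-0.18), and DLGAP5, a stabilizer of kinetochore fibres, fell with ARV-825 (-0.21). In the other comparison each missed the threshold, TPX2 at -0.10 with ARV-825 and DLGAP5 at -0.08 with OTX015. HMMR, a spindle protein and hyaluronan receptor, was at 0.02 and -0.09 and passed in neither.

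Of the 7 central spindle and cytokinesis genes, 2 rose and 4 fell with ARV-825, and 2 rose and 3 fell with OTX015. All-gene shares were 35.8% up and 38.4% down with ARV-825, and 36.1% and 33.5% with OTX015. KIF20A, the motor MKLP2 that carries the passenger complex to the central spindle, was at 14.8, 16.9 and 17.4 FPKM in the control libraries, 22.5, 22.4 and 20.3 with OTX015 and 29.8, 28.96 and 30.1 with ARV-825. The 3 groups did not overlap, ARV-825 was 1.81-fold above the controls (log2 0.82 ± 0.0647, adjusted p = 7.48e-07), and OTX015 was 1.33-fold above them (0.39 ± 0.0647, adjusted p = 0.000292). ANLN, the scaffold anillin of the cleavage ring, rose by 0.23 with ARV-825, where its values overlapped the controls, and by 0.37 with OTX015. PRC1, which bundles midzone microtubules, fell by 0.72 and 0.37 on the log2 scale with ARV-825 and OTX015. KIF14, a motor of the midbody, fell by 0.47 and 0.28, and RACGAP1, the GTPase regulator of the central spindle, by 0.33 and 0.24. ECT2, the exchange factor that turns on RhoA at the cleavage site, fell with ARV-825 (-0.22) and was at 0.10 with OTX015, which did not pass. KIF23, the motor partner of RACGAP1, was at 0.01 and -0.03 and passed in neither.

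The remaining pair act on mitotic chromosomes. TOP2A was at 97.1, 102 and 95.3 FPKM in the control libraries, 82.03, 78.6 and 83.9 with OTX015 and 85.98, 87.6 and 78.95 with ARV-825. Every drug value lay below every control value and the drugs overlapped each other, with changes of -0.22 ± 0.0488 (adjusted p = 0.00196) for ARV-825 and -0.26 ± 0.0488 (adjusted p = 0.000631) for OTX015. MKI67, the Ki-67 protein that coats mitotic chromosomes and is the usual marker of cycling cells, was at 60.01, 64.4 and 61.9 FPKM in the control libraries, 63.0, 63.4 and 70.5 with OTX015 and 54.5, 57.2 and 47.1 with ARV-825. All 3 ARV-825 values were lower than all controls (-0.23 ± 0.0705, adjusted p = 0.0122), whereas the OTX015 values overlapped them (0.08 ± 0.0705, adjusted p = 0.351).

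The 8 genes that did not pass with ARV-825 had intervals from -0.384 to 0.213, and the 16 that did not pass with OTX015 from -0.262 to 0.324, on the log2 scale. Some of the smaller ARV-825 changes depended on single libraries: the threshold was missed for CCNB2 without any ARV-825 library or control replicate 2 or 3, CDC25B without ARV-825 replicate 1 or 2 or control replicate 1, ESPL1 without control replicate 1, INCENP without ARV-825 replicate 3 or control replicate 2, CENPA without ARV-825 replicate 1 or 3 or control replicate 1 or 3 and ANLN without ARV-825 replicate 1 or 2 or control replicate 1, with an adjusted p of up to 0.181 over all alternatives. With OTX015 it was missed for CCNA2 without OTX015 replicate 1 or 2 or any control library, CDC25B without any OTX015 library or control replicate 1 or 3, MAD2L1 without OTX015 replicate 1 or control replicate 1, PTTG1 without OTX015 replicate 1 or 2 or control replicate 1, AURKB without OTX015 replicate 1 or control replicate 1, BIRC5 without OTX015 replicate 3 or control replicate 2 or 3 and CENPA without OTX015 replicate 2 or control replicate 1 or 3, with an adjusted p of up to 0.191. Under median-ratio rescaling of the libraries the threshold was also missed for CCNA2, MKI67, CCNB2 and INCENP with ARV-825. Calls were gained in 1 or 2 alternatives each for CENPE and TPX2 with ARV-825, and for CCNB1, ESPL1, INCENP and HMMR with OTX015. No gene with a change of more than 0.4 in size lost its call in either comparison under the alternatives run.

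**Figure D3:**
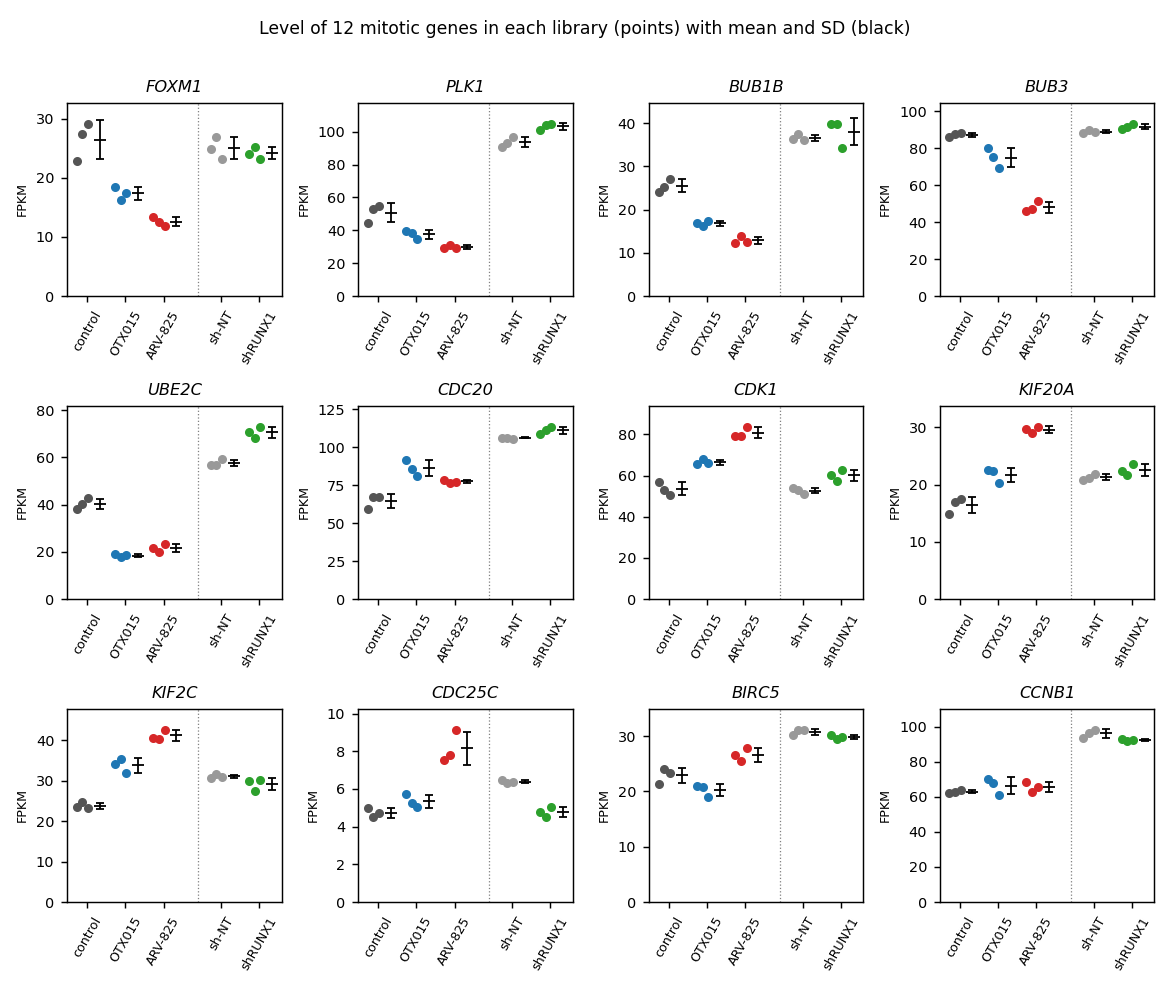
Each panel shows FPKM of 1 gene on a linear axis from 0, with a coloured point per library and the mean and SD of the 3 libraries in black; the dotted line separates the drug and shRNA tables, which were normalized apart, and sh-NT and shRUNX1 stand for the non-targeting and RUNX1 shRNA groups. FOXM1, PLK1, BUB1B and BUB3 step down from control to OTX015 to ARV-825, KIF20A, KIF2C and CDK1 step up, and BIRC5 goes down with OTX015 and up with ARV-825.

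The drugs were given at the same dose and time, so they were also set against each other, as 1 pair in the same fit. Of the 47 genes, 10 were higher and 15 lower with ARV-825 than with OTX015, against 24.7% higher and 33.4% lower of all genes tested. When each library was rescaled by a median-ratio factor, the counts were 13 higher and 10 lower, with PTTG1, TPX2 and HMMR gained among the higher and CDC20, SPC25, KIF11, CKAP2 and KIF14 lost among the lower, against 29.8% higher and 28.9% lower of all genes after the same rescaling. The median difference was -0.02 for the 47 genes and -0.04 for all genes, and no gene of the 47 differed by 2-fold or more, against 1.97% of all genes. BUB3 was the gene furthest apart, 1.56-fold lower with ARV-825 (log2 difference -0.63 ± 0.0575, adjusted p = 1.1e-05). It was followed by NDC80 (-0.53 ± 0.0543, adjusted p = 2.06e-05), and CDC25C was furthest in the other direction (0.53 ± 0.0825, adjusted p = 0.000317). FOXM1 (-0.44), TTK (-0.40), BUB1B, AURKA, PRC1, PLK1, ECT2, MKI67, SPC25 and KIF14 were also lower with ARV-825, from -0.36 for BUB1B to -0.19 for SPC25. KIF20A (0.43), BIRC5 (0.38), CDCA8 (0.36), GTSE1, KIF4A, KIF2C, CDK1 and NUF2 (0.25) were higher.

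In 4 genes whose difference between the drugs passed, both drugs gave a change from the controls in the same direction and that with OTX015 was the larger. The share of all genes with this pattern was not counted, so the 4 cannot be called many or few. UBE2C was higher with ARV-825 than with OTX015 by 0.23 ± 0.0635 (adjusted p = 0.011), while both were below the controls. CKAP2 (-0.15 ± 0.0401, adjusted p = 0.00694), CDC20 (-0.15 ± 0.0576, adjusted p = 0.0424) and KIF11 (-0.14 ± 0.0448, adjusted p = 0.0215) were lower with ARV-825 than with OTX015, and above the controls with both. The differences of CKAP2, CDC20 and KIF11 did not pass after median-ratio rescaling. The 22 genes that did not pass had intervals from -0.41 to 0.377, which leaves room for differences of the size seen in UBE2C. CCNB1 differed by -0.01 (-0.137 to 0.107), AURKB by 0.03 (-0.078 to 0.133), TOP2A by 0.04 (-0.063 to 0.153) and CENPA by -0.04 (-0.181 to 0.105). The threshold was missed for CDC20 without any ARV-825 library or OTX015 replicate 1 or 2, SPC25 without ARV-825 replicate 2 or 3 or any OTX015 library, KIF11 without ARV-825 replicate 3 or OTX015 replicate 2 and KIF14 without ARV-825 replicate 1 or 3 or OTX015 replicate 1 or 3, with an adjusted p of up to 0.164 over all alternatives. CENPE passed without ARV-825 replicate 2 or OTX015 replicate 2, and DLGAP5 without ARV-825 replicate 3.

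With RUNX1 shRNA at 72 h the same genes moved little. Of the 47, 8 rose and 4 fell, against 13.5% and 13.8% of the 10925 genes tested. The median log2 change was 0.00 for the 47 genes and -0.01 for all genes, and the median absolute change 0.0534 against 0.106. None of the 47 changed 2-fold, against 0.677% of all genes. Among the mitotic entry genes, CDC25C was at 6.46, 6.29 and 6.37 FPKM with non-targeting and 4.80, 4.51 and 5.04 with RUNX1 shRNA. All RUNX1 shRNA values were lower, the largest change of the 47 (-0.35 ± 0.0616, adjusted p = 0.00411). CDK1 was at 53.9, 53.1 and 51.2 FPKM with non-targeting and 60.2, 57.5 and 62.8 with RUNX1 shRNA, higher in every RUNX1 shRNA library (0.19 ± 0.0386, adjusted p = 0.00877). PLK1 was at 90.8, 92.9 and 96.7 FPKM with non-targeting and 101, 104 and 105 with RUNX1 shRNA, also higher without overlap (0.14 ± 0.0316, adjusted p = 0.0116). CCNA2 fell (-0.12 ± 0.035, adjusted p = 0.0377). CCNB1 was at 93.6, 96.7 and 98.4 FPKM with non-targeting and 92.9, 91.8 and 92.3 with RUNX1 shRNA, just below without overlap, and did not pass (-0.06 ± 0.0275, adjusted p = 0.149). FOXM1 at 24.9, 26.9 and 23.3 FPKM with non-targeting and 24.1, 25.3 and 23.2 with RUNX1 shRNA and AURKA at 46.5, 46.5 and 47.1 FPKM with non-targeting and 48.7, 44.1 and 45.5 with RUNX1 shRNA overlapped between groups, with intervals of -0.175 to 0.085 and -0.111 to 0.071.

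In the later roles UBE2C was at 56.9, 56.9 and 59.1 FPKM with non-targeting and 70.6, 68.1 and 73.02 with RUNX1 shRNA. Every RUNX1 shRNA library was higher, by 1.22-fold (0.29 ± 0.0342, adjusted p = 0.000622). CDC20 was at 106, 106 and 106 FPKM with non-targeting and 109, 111 and 114 with RUNX1 shRNA, higher in each library by an amount that did not pass (0.07 ± 0.0256, adjusted p = 0.0843). PTTG1 fell (-0.12) and so did DLGAP5 (-0.15), while HMMR rose (0.12). AURKB was at 47.1, 45.1 and 45.7 FPKM with non-targeting and 50.5, 53.3 and 50.1 with RUNX1 shRNA, a rise in every library (0.16 ± 0.0349, adjusted p = 0.0124), and BIRC5 at 30.2, 31.1 and 31.2 FPKM with non-targeting and 30.2, 29.5 and 29.8 with RUNX1 shRNA, a difference that did not pass (-0.04 ± 0.0326, adjusted p = 0.341). Of the kinetochore genes CENPE alone passed, at 11.5, 11.7 and 11.2 FPKM with non-targeting and 13.4, 14.4 and 12.5 with RUNX1 shRNA, with all RUNX1 shRNA values higher (0.21 ± 0.0573, adjusted p = 0.0289). CENPA at 20.7, 21.7 and 22.5 FPKM with non-targeting and 20.5, 20.3 and 21.98 with RUNX1 shRNA and NDC80 at 23.4, 24.1 and 23.7 FPKM with non-targeting and 24.04, 23.6 and 24.02 with RUNX1 shRNA overlapped. Of the chromosome structure pair, MKI67 was at 57.1, 50.9 and 51.7 FPKM with non-targeting and 59.4, 70.01 and 59.8 with RUNX1 shRNA, higher in every library and most in replicate 2 (0.24 ± 0.0682, adjusted p = 0.0326). TOP2A was at 109.7, 106 and 106 FPKM with non-targeting and 116, 116 and 113 with RUNX1 shRNA, a small rise without overlap (0.10 ± 0.0264, adjusted p = 0.0254).

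None of the 5 checkpoint genes and none of the 7 cytokinesis genes passed with all libraries. Without RUNX1 shRNA replicate 3, BUB1B (adjusted p = 0.0409) and the passenger gene INCENP (adjusted p = 0.0236) passed. BUB1B was at 36.4, 37.4 and 36.05 FPKM with non-targeting and 39.9, 39.8 and 34.3 with RUNX1 shRNA and BUB3 at 88.2, 89.7 and 88.8 FPKM with non-targeting and 90.5, 91.3 and 93.4 with RUNX1 shRNA. The first overlapped and the second was slightly higher in each RUNX1 shRNA library (0.04 ± 0.0255, adjusted p = 0.232). TTK at 18.9, 18.7 and 19.4 FPKM with non-targeting and 18.9, 17.6 and 19.2 with RUNX1 shRNA and KIF20A at 20.9, 21.2 and 21.9 FPKM with non-targeting and 22.4, 21.7 and 23.6 with RUNX1 shRNA overlapped. Of the spindle genes with the widest drug changes, KIF2C was at 30.7, 31.6 and 30.98 FPKM with non-targeting and 29.8, 27.6 and 30.1 with RUNX1 shRNA and CKAP2 at 43.1, 42.4 and 41.05 FPKM with non-targeting and 41.1, 40.6 and 43.6 with RUNX1 shRNA, and neither passed. The 35 genes that did not pass had intervals from -0.184 to 0.271. The number that rose was 5 without RUNX1 shRNA replicate 2, 4 without non-targeting replicate 2 and 4 without non-targeting replicate 3, and the number that fell was 2 without non-targeting replicate 2 and 2 without non-targeting replicate 3. Over all genes 11.7% rose and 11.3% fell in the first of these fits, 9.64% and 8.96% in the second and 9.44% and 8.85% in the third, against 13.5% and 13.8% with all libraries. CDK1, CDC25C, PLK1 and UBE2C passed in all 12 alternatives. The threshold was missed for CCNA2 without RUNX1 shRNA replicate 1 or 2 or any non-targeting shRNA library, PTTG1 without non-targeting shRNA replicate 3, AURKB without non-targeting shRNA replicate 2, CENPE without RUNX1 shRNA replicate 1 or 2 or any non-targeting shRNA library, HMMR without non-targeting shRNA replicate 3, DLGAP5 without non-targeting shRNA replicate 2, TOP2A without RUNX1 shRNA replicate 1 or 2 or non-targeting shRNA replicate 2 or 3 and MKI67 without RUNX1 shRNA replicate 2 or non-targeting shRNA replicate 2 or 3, with an adjusted p of up to 0.130.

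**Figure D4:**
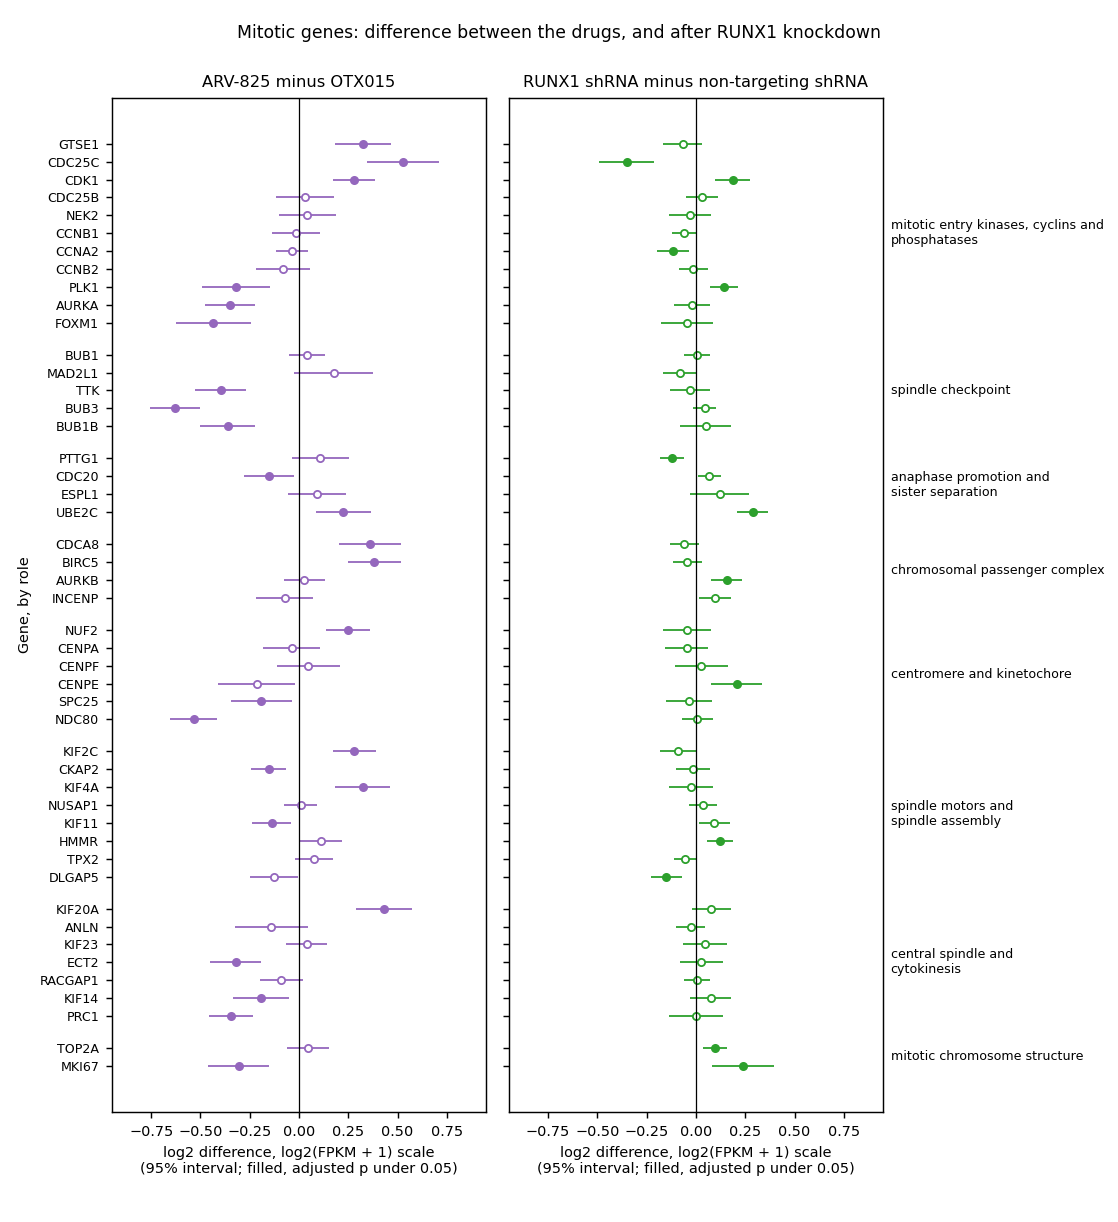
The left panel gives the log2 difference of ARV-825 minus OTX015 and the right panel that of RUNX1 shRNA minus non-targeting shRNA for the same 47 genes on equal axes, with 95% intervals and filled points where the adjusted p is under 0.05. BUB3 at -0.63 and CDC25C at 0.53 mark the ends on the left, and on the right the points lie between CDC25C at -0.35 and UBE2C at 0.29.

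Another 64 G2 and mitosis genes, listed by role and not among the 47, were counted in the same fits, and 63 were tested. Of all genes tested, 35.8% rose and 38.4% fell with ARV-825, and 36.1% rose and 33.5% fell with OTX015. Between the drugs 24.7% of all genes were higher and 33.4% lower with ARV-825. With RUNX1 shRNA 13.5% of all genes rose and 13.8% fell. The counts of the 63 were not tested against these shares. With ARV-825 23 rose and 19 fell, led by MASTL (1.15), the Greatwall kinase that restrains the phosphatase opposing CDK1, and CDCA2 (1.14), a phosphatase subunit of anaphase chromatin. LMNB1, the lamin B1 of the nuclear envelope, fell (-1.09), and CENPN, an inner kinetochore protein, rose (0.90). The same 4 led with OTX015, where 23 rose and 15 fell: MASTL (0.86), CDCA2 (0.84), LMNB1 (-0.65) and CENPN (0.60). Median changes of the 63 were -0.02 with ARV-825 and 0.05 with OTX015. Between the drugs 14 were higher and 13 lower with ARV-825, led by CENPH (0.65), an inner kinetochore protein, FZR1 (-0.60), the late activator of the anaphase-promoting complex, ARHGAP11A (-0.53), a RhoA regulator, and CDC27 (-0.53), a core subunit of that complex. With RUNX1 shRNA 3 rose and 6 fell, led by LMNB1 (-0.61), PSRC1 (-0.33), TROAP (-0.32) and SKA3 (-0.30), all lower. SKA3 belongs to the complex that holds kinetochores on moving microtubule ends.

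Strand and read assignment bear on some of these values, since the sources used here do not state whether counting used strand. By exon coordinates of GENCODE release 29, 11 of the 47 genes have an exon that overlaps a gene on the opposite strand. They are ANLN, CCNA2, CDC25C, HMMR, KIF20A, KIF23, KIF2C, MAD2L1, PLK1, PRC1 and RACGAP1. If counting did not use strand, reads from the overlapping stretches, of 42 to 334 bases, could not be told apart. BUB1B, NUSAP1 and PRC1 share 172, 1787 and 2716 bases of exon sequence with an annotated gene on the same strand. Strand could not tell reads from these stretches apart. Named pseudogenes exist for AURKA, BUB1, BUB3, CCNB2, CDC20, CKAP2, DLGAP5, MKI67, NEK2, RACGAP1 and UBE2C, so the values of these 11 are uncertain where reads could be split with a copy.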

How the data were processed

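The 15 libraries were grouped by treatment label and numbered by title. The deposited values fill 2 tables of 19620 entries, 1 for the drug experiment (9 libraries) and 1 for the shRNA experiment (6 libraries), and were read as FPKM that the authors had quantile normalized within each table. The tables state no unit. FPKM is taken from the Cufflinks 2.0 entry in the submitters' processing notes, which also name TopHat2 2.0 and hg19. The sources used here do not name the gene annotation. Quantile normalization is inferred from the deposited names, and its kind is not known. The median FPKM of a library still ran from 1.8 to 2.2 in the drug experiment, so the libraries did not share 1 distribution. The medians differed by treatment. Replicates 1, 2 and 3 of ARV-825 had the lowest, at 1.8, 1.83 and 1.92. Those of OTX015 had 2.08, 2.1 and 2.06, and the controls had the highest, at 2.15, 2.2 and 2.18. After median-ratio rescaling, 39.3% of all genes rose and 35.5% fell under ARV-825, against 35.8% and 38.4% before it. Normalized values do not show differences in total RNA per cell, and the tables were normalized apart, so no test crosses them. Without read counts, depth is unknown and counting error cannot be given. Y copies of pseudoautosomal genes were dropped, 16 from each table.

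Values were analysed as log2(FPKM + 1), which understates changes of low genes. Genes averaging 1 FPKM or more over a table were tested with limma 3.58.1 (R 4.3.3; lmFit, eBayes with trend, two-sided), with Benjamini-Hochberg adjustment over all genes tested and a threshold of 0.05. The 9 drug libraries shared 1 fit, and the 6 shRNA libraries had another. Errors beside log2 changes are standard errors, intervals are 95% intervals of limma, and fold changes of named genes are ratios of mean FPKM. Counts and shares of genes changed 2-fold are instead of log2 changes of at least 1 in size on the log2(FPKM + 1) scale. The fit was tested on simulated data. The 47 genes and the other lists were chosen with earlier results of these data known. Values in every library are given for CDK1, CCNB1, PLK1, AURKA, FOXM1, BIRC5, CENPA, TOP2A, MKI67, KIF20A, CDC20 and the 6 genes with the largest called change in each comparison. From each list outside the 47, the 4 largest called changes in each comparison are named, with MYC, HEXIM1, RUNX1 and CDKN1A as checks; 1 gene of the regulator list that this rule names is not reported here. Alternatives were a pseudocount of 0.1, no filter, a mean of at least 5 FPKM, median-ratio rescaling, only the 2 groups in the fit, no trend, the replicate number as a block and each library left out. Promoters came from RefSeq on GRCh38.p14. Pseudogenes were found by name, and overlaps by exon coordinates, in GENCODE release 29 on GRCh38, a different build from the hg19 of the deposited values.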

Additional observations from a re-analysis of the deposited data

How the results depend on the processing

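No call among the 47 genes changed direction under any alternative. Of the called genes, 31 of 39 with ARV-825, 24 of 31 with OTX015, 20 of 25 between the drugs and 4 of 12 with RUNX1 shRNA passed in all alternatives run. Over these alternatives the counts higher and lower ranged from 16 to 20 and 15 to 20 with ARV-825, 11 to 16 and 14 to 16 with OTX015, and 10 to 13 and 10 to 15 between the drugs. The shares of all genes higher and lower ranged from 25.8% to 39.3% and 29.2% to 38.4% with ARV-825. With OTX015 the shares were 23.2% to 38.2% and 24.9% to 35.3%, and between the drugs 17.5% to 29.8% and 22.2% to 33.4%. Leaving out 1 library gave 4 to 10 higher and 2 to 4 lower with RUNX1 shRNA, against 8 and 4 with all libraries. In the same fits 9.44% to 12.8% of all genes were higher and 8.85% to 13.1% lower, against 13.5% and 13.8% with all libraries. These fits hold fewer samples, and the cause was not tested further. With the replicate number as a block (replicate block), the counts were 18 and 18 with ARV-825, 14 and 14 with OTX015, 10 and 12 between the drugs, and 7 and 3 with RUNX1 shRNA. The all-gene shares with this block were 34.7% and 37.1% with ARV-825 and 34.6% and 32.6% with OTX015. They were 23.1% and 31.3% between the drugs, and 11.9% and 11.7% with RUNX1 shRNA. The replicate numbers are not known to pair the libraries, since deviations of same-numbered libraries correlated at -0.321 to 0.0613 across genes. Those of different-numbered libraries correlated at -0.224 to 0.409, the highest between ARV-825 replicate 2 and OTX015 replicate 3. Depth is unknown, so small changes cannot be set against counting error. The 3 libraries per group limit the precision of each change.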

Other observations

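Regulators of the mitotic genes were counted in the same fits. The shares of all genes higher and lower were 35.8% and 38.4% with ARV-825 and 36.1% and 33.5% with OTX015. They were 24.7% and 33.4% between the drugs, and 13.5% and 13.8% with RUNX1 shRNA. The regulator counts were not tested against them. Of 23 regulators of G2/M transcription, 8 rose and 10 fell with ARV-825, with a median absolute log2 change of 0.5, against 0.386 for all genes tested. CDKN1A, the p21 inhibitor of cyclin-dependent kinases, rose from 148 ± 10.2 FPKM in the controls (SD, n = 3) to 313, 292 and 294 in the OTX015 libraries and 619.9, 552 and 498 in the ARV-825 libraries. E2F2, an activating E2F, fell with ARV-825 (-1.10), as did LIN9 (-0.95), a subunit of the MuvB core, while LIN52 (0.99), another subunit of that core, rose. With OTX015 7 rose and 9 fell, led by NFYA (1.26), the subunit of NF-Y that contacts CCAAT, CDKN1A (1.02), E2F5 (-0.91) and E2F7 (0.58), both repressive E2F proteins. Between the drugs 5 were higher and 10 lower with ARV-825, led by CDKN1A (0.88), E2F2 (-0.82), NFYA (-0.76) and LIN9 (-0.60). With RUNX1 shRNA 3 rose and 2 fell, among them LIN54 (-0.30), the MuvB subunit that binds the CHR, RBL2 (-0.25), a pocket protein of the DREAM complex, and CDKN1A (0.21). HEXIM1, whose product holds P-TEFb inactive and which responds to BET inhibitors, was at 11.3 ± 0.879 FPKM in the controls, 92.03 ± 1.77 with OTX015 and 49.6 ± 2.20 with ARV-825.

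Genes of the preceding G1/S and replication step were counted for comparison. Their counts stand beside all-gene shares of 35.8% higher and 38.4% lower with ARV-825 and 36.1% and 33.5% with OTX015. The all-gene shares were 24.7% and 33.4% between the drugs, and 13.5% and 13.8% with RUNX1 shRNA. Differences from these shares were not tested. Of 44, 19 rose and 16 fell with ARV-825, led by ORC6 (1.29), GINS4 (0.92), POLE2 (-0.91) and TK1 (0.90). With OTX015 18 rose and 14 fell, led by RRM2 (0.93), POLE2 (-0.83), CLSPN (0.80) and CDC6 (0.72). Between the drugs 15 were higher and 10 lower with ARV-825, led by ORC6 (0.66), POLA1 (0.63), RRM2 (-0.50) and TK1 (0.42). With RUNX1 shRNA 1 rose and 8 fell, CLSPN (0.27) upwards and CDC45 (-0.20), RFC2 (-0.19) and GINS2 (-0.18) furthest down. The median log2 change of the 44 was -0.07 with RUNX1 shRNA, against 0.00 for the 47 mitotic genes. The difference between the lists was not tested.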
